A study of Mus musculus with 4 samples.

Results

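The genes described here encode the amyloid precursor protein, its closest relative, the proteases that cut it and the endocytic proteins of Alzheimer's disease risk that move it through the cell. They were chosen by gene symbol as App, Aplp2, Psen2, Ncstn, Bace1, Bace2, Picalm, Bin1 and Sorl1, which are 9 of the 45777 genes in the expression table. RNA-seq of poly-A RNA had been done on MG5, a mouse microglial cell line labelled as wild type (WT). Treatment with 10 µM 6OHA lasted 6 h and gave 2 libraries, replicates 1 and 3. The compound, described here by its code name alone, activates the retinoid X receptor, a nuclear receptor that binds DNA with itself or with partner receptors. Replicates 1 and 2 of the untreated control gave the other 2 libraries, with no mention of a solvent in the labels. Cells of both groups grew in medium mixed with medium conditioned by A1 astrocyte-like cells. Separate cultures are not stated for any library, so the p-values below describe spread among 4 libraries of one cell line and that spread may be technical.

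The amyloid precursor protein is a membrane protein that can be cut along either of a pair of routes. A cut by an alpha-secretase falls inside the amyloid beta stretch and prevents its release, whereas a cut by the beta-secretase BACE1 at its start, followed by a cut in the membrane by gamma-secretase, sets amyloid beta free. Gamma-secretase is a complex in which a presenilin holds the active site and nicastrin is the large subunit that meets the substrate. Which cut is made depends on the compartment the protein reaches, so clathrin adaptors such as PICALM, membrane-bending proteins such as BIN1 and the sorting receptor SORL1 belong to the same account, and variants near their genes are associated with Alzheimer's disease. In the brain, microglia are known more for taking up and degrading amyloid beta than for making it.

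Total counts ran from 31057950 to 42541641 per library. All 12 microglial and macrophage markers were above the filter on low counts, with a summed level of 8400 to 8738 TPM (a level scaled by transcript length and by library) in 6OHA libraries and 8390 to 8735 TPM in control libraries. Among them the fractalkine receptor gene Cx3cr1 was lower in 6OHA (log2 fold change -0.81, edgeR adjusted p = 0.0026), and 11 did not pass. The 9 neuronal markers summed to 4.57 to 5.87 TPM in 6OHA and 8.28 to 8.29 TPM in control, and 5 of them, Rbfox3, Syt1, Slc17a7, Gad1 and Stmn2, had 0 counts in every library. The neuronal marker Map2, which encodes a microtubule-associated protein, was lower in 6OHA (log2 fold change -0.76, edgeR adjusted p = 0.0273). Snap25, also a neuronal marker, had 3.31 and 3.42 TPM in 6OHA, against 5.18 and 4.38 TPM in control. The 8 astrocyte markers summed to 10.1 to 10.5 TPM in 6OHA and 15.4 TPM in each control, with Gfap and Aqp4 at 0 counts. Most of that sum was Aldh1l1, with 8.01 and 8.72 TPM in 6OHA, against 11.8 and 11.5 TPM in control. Oligodendrocyte, endothelial, and fibroblast and pericyte markers summed to at most 49.3, 80.6 and 0.0466 TPM in 6OHA, and to at most 43.1, 97.5 and 0.0355 TPM in control. Mog, Mobp, Olig2, Cldn5, Col1a2, Col3a1, Dcn, Lum and Pdgfrb were at 0 counts throughout. Other markers of these lists were well detected. The endothelial marker Kdr had 74.2 and 75.1 TPM in 6OHA, against 92.4 and 80.2 TPM in control. The oligodendrocyte marker Mbp had 42.6 and 44.6 TPM in 6OHA, against 36.8 and 34.3 TPM in control. Each made up most of its list's sum. The part of these marker levels in the results below was not tested.

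Of the 7 members with enough reads to be tested, 1 passed. Picalm, which gathers clathrin and the AP-2 adaptor on the membrane when a vesicle forms, was 1.39-fold higher in 6OHA. App, its relative Aplp2, the gamma-secretase subunit genes Psen2 and Ncstn, and the risk genes Bin1 and Sorl1 did not pass, with log2 fold changes between -0.11 and 0.21. The beta-secretase genes Bace1 and Bace2 were at or near 0 counts in both groups and were not tested. Testing covered 14634 genes by edgeR quasi-likelihood with Benjamini-Hochberg adjustment, and 295 of these genes, 2.02%, passed an adjusted p under 0.05. Of all tested genes 1.39% were called higher and 0.629% lower, against 1 and 0 of the 7 members, and a count of 1 carries no more than the gene itself. Without 6OHA replicate 1 the members called were 0, and without control replicate 2 the genes called in all were 500.

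Promoter sequence from RefSeq, on build GRCm38.p6, is shown for Picalm, the member that rose, and for Ncstn, the only member whose window holds the AGGTCA hexamer recognised by many nuclear receptors. Each line gives the 250 bases before a transcript start, which can lie inside the gene's full annotated span: the last 21 bases shown for Picalm and the last 40 shown for Ncstn do so. Capitals mark AGGTCA or its reverse complement TGACCT, and the GC box GGGCGG or its reverse complement CCGCCC.
Picalm, chr7:90129963-90130212, plus strand: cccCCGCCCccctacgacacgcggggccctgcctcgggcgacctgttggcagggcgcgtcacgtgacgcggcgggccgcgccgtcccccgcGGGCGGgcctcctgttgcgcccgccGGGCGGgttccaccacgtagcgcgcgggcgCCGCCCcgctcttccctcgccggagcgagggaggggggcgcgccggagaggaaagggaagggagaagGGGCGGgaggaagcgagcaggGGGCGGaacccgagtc
Ncstn, chr1:172082750-172082999, minus strand: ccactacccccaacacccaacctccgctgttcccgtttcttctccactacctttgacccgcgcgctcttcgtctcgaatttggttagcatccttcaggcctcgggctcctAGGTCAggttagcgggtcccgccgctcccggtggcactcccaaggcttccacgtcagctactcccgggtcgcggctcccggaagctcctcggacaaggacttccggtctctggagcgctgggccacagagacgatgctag
The Picalm window has 79.2% G and C, 39 CG steps and 6 GC boxes, and it holds no AGGTCA hexamer. The Ncstn window has 63.2% G and C and 21 CG steps, with 1 AGGTCA hexamer and 0 GC boxes. Of 32851 such windows in the RefSeq table, 14.0% hold the hexamer and 32.7% hold a GC box on either strand. Windows were found for 6 members, 8 windows in all. Of these, 4 (1 of App, 2 of Psen2 and 1 of Sorl1) lie wholly inside the gene's span. The 7 besides that of Picalm hold from 0 to 3 GC boxes and have from 44.8% to 70.8% G and C. Whether the number of boxes differs from that in windows of like G and C content was not tested. Repeats of the hexamer in the same direction, spaced by 1, 2, 4 or 5 bases (AGGTCANAGGTCA, AGGTCANNAGGTCA, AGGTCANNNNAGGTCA and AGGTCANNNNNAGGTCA), contain the single hexamer and occur in 0 of the 8 windows and in at most 11 of all windows. These matches describe letters in one short stretch and say nothing of binding there or elsewhere.

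The members covered a wide range of levels per transcript length. App was the most abundant at 696 ± 40.3 TPM in 6OHA and 690 ± 7.15 TPM in control (SD, n = 2), and it ranked 189 of 21286 genes with a mean TPM above 0. Picalm and Bin1 came next, then Aplp2, Ncstn, Psen2 and Sorl1, and all 4 libraries of each of these lay apart from the next gene in the order except for Picalm and Bin1. Picalm measured 328 and 302 TPM in 6OHA replicates 1 and 3, against 242 and 214 TPM in control replicates 1 and 2. Bin1 measured 223 and 234 TPM in the same 6OHA libraries, against 249 and 244 TPM in the controls. Picalm was thus the higher of the pair in both 6OHA libraries, where its level over that of Bin1 was 1.47 and 1.29, and the lower in both controls, where this ratio was 0.975 and 0.879. Sorl1, the least abundant member that was tested, had 23.9 ± 1.19 TPM in 6OHA and 20.9 ± 3.19 TPM in control (SD, n = 2).

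**Figure D1:**
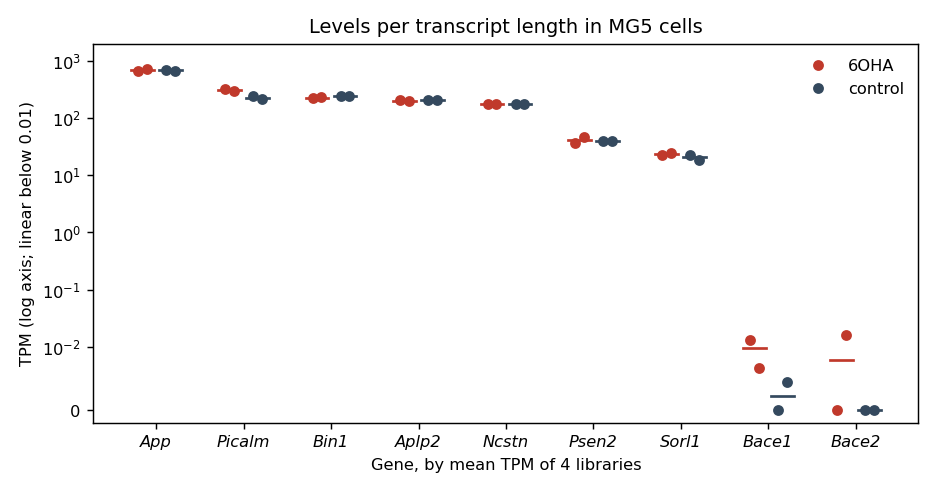
TPM of each member in each library (points) with the group mean (bars), 6OHA in red and control in dark blue, on a log axis that is linear below 0.01 TPM. App lies between 667 and 724 TPM, the 6 genes that follow lie between 18.6 and 328 TPM, and Bace1 and Bace2 stay at or below 0.0159 TPM.

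App encodes the precursor itself. It lies on chromosome 16 from 84952666 to 85175255 (Entrez gene 11820, GRCm38). Levels of 1 gene between libraries are given as CPM, read counts scaled by the library's TMM-adjusted total. App had 1097 and 1189 CPM in 6OHA replicates 1 and 3, against 1091 and 1124 CPM in control replicates 1 and 2. The groups overlapped, since 6OHA replicate 1 lay between the controls. The log2 fold change was 0.05 (SE 0.09, edgeR adjusted p = 0.942), and its own 95% interval ran from -0.15 to 0.24, or 0.902-fold to 1.18-fold.

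Aplp2, the precursor-like protein that shares the domain layout of APP but lacks the amyloid beta stretch, lies on chromosome 9 from 31149557 to 31211848. It had 354 and 342 CPM in 6OHA, against 352 and 355 CPM in control, and the groups overlapped. This gave a log2 fold change of -0.02 (SE 0.09, 95% interval -0.21 to 0.17, edgeR adjusted p = 0.971). Within a library Aplp2 had 0.293 ± 0.0239 of the TPM of App in 6OHA and 0.302 ± 0.00276 in control (SD, n = 2), so App was the more abundant of these relatives by a factor of 3.41 in 6OHA and 3.31 in control.

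The beta-secretase genes had at most 3 counts in any library. Bace1, which encodes the enzyme that makes the first cut of the amyloid route, lies on chromosome 9 from 45838545 to 45862484 and had 1 count in each of the 4 libraries. Its deposited TPM values were 0.0129 and 0.00667 in 6OHA, against 3e-06 and 0.00441 in control. Across all genes, 266 of the 2822 counts of 1 stood beside an FPKM under 0.001, so a deposited count of 1 need not be a whole read. Taken as they are, the 2 counts in 66372732 of the 6OHA libraries are 0.0301 CPM (exact Poisson 95% interval 0.00365 to 0.109), and the 2 in 76948290 of the controls are 0.0260 CPM (0.00315 to 0.0939), intervals that cover counting error only.

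Bace2, the relative of Bace1 on chromosome 16 from 97356728 to 97442936, had 0 and 3 counts in 6OHA replicates 1 and 3, against 0 and 0 in the controls. The 3 counts are 0.0452 CPM over the 6OHA libraries (exact Poisson 95% interval 0.00932 to 0.132). The controls, at 0 counts, could lie at up to 0.0390 CPM by a limit of 3 counts over the group, and the two-sided exact Poisson interval used for the other values reaches 0.0479 CPM. Both groups are at or under that limit for both genes, so no fold is given. Of the distinct 31-base stretches of Bace1 transcripts, 30.3% also occur, on either strand, in transcripts of other genes. Rnf214 had the most matches. For Bace2 this share was 0%.

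The gamma-secretase members stayed within the spread of the libraries. Psen2, which encodes a presenilin and so a catalytic subunit, lies on chromosome 1 from 180227004 to 180263467. It had 35.1 and 44.3 CPM in 6OHA, against 36.6 and 38.6 CPM in control. The 6OHA libraries fell on either side of both controls, and its interval was the widest of the tested members. Its log2 fold change was 0.08 (SE 0.13, 95% interval -0.20 to 0.36, edgeR adjusted p = 0.927). Ncstn, on chromosome 1 from 172066013 to 172082789, encodes nicastrin. It had 237 and 235 CPM in 6OHA, against 233 and 243 CPM in control, and the log2 fold change was -0.01 (SE 0.09, 95% interval -0.20 to 0.18, edgeR adjusted p = 0.981). Psen2 had 0.240 ± 0.0406 of the TPM of Ncstn in 6OHA and 0.225 ± 0.00190 in control (SD, n = 2). Of the 31-base stretches of Ncstn, 6.80% also occur, on either strand, in transcripts of other genes, and Copa had the most matches. Whether reads were counted by strand is not given in the sources used here.

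Picalm lies on chromosome 7 from 90130192 to 90209447 (Entrez gene 233489). It had 630 and 578 CPM in 6OHA replicates 1 and 3, against 454 and 415 CPM in control replicates 1 and 2. Both 6OHA libraries lay above both controls. Groups that did not overlap, in either direction, were found for 3 of the 7 tested members (Picalm, Sorl1 and Bin1) and for 38.8% of all tested genes. The mean was 604 ± 37.2 CPM in 6OHA and 435 ± 27.1 CPM in control (SD, n = 2). The log2 fold change was 0.47 (SE 0.09, 95% interval 0.27 to 0.68, edgeR adjusted p = 0.0252). In bulk RNA a change in the share of cells that hold a transcript and a change in its amount per cell cannot be told apart.

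The size of the Picalm difference moved less between settings than its call. Across 15 alternative settings the log2 fold change ran from 0.41 to 0.54. All of these settings reuse the same libraries, so their likeness in size adds no further evidence. The call was lost without 6OHA replicate 1 (edgeR adjusted p = 0.237), with no filter on low counts (0.122) and in limma on log2(FPKM + 1), log2(FPKM + 0.1) and log2(TPM + 1) values (0.131, 0.121 and 0.0992). Replicate 1 of both groups differed from the other library of its group in a trend with the GC content of genes, with slopes of -0.05 and 0.04 log2 units per SD of GC content in 6OHA replicates 1 and 3, against -0.07 and 0.07 in control replicates 1 and 2. Picalm transcripts have a mean GC content of 42.0%, the lowest of the 9 members, and Picalm was 1.09-fold higher in replicate 1 than in the other library of its group in 6OHA and in control alike. Set against the control library of like trend, it was 1.39-fold higher in 6OHA replicate 1 and 1.39-fold higher in 6OHA replicate 3. This matching was made from a trend in these same libraries, so it is a description and not a pairing. The part of GC content in the Picalm difference was not tested. With a GC term per library in the fit, an alternative added after the data were seen, the log2 fold change was 0.49 (edgeR adjusted p = 0.000216). That fit called 824 genes in all, against 295 without the term. Only 0.201% of its 31-base stretches occur in other genes.

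**Figure D2:**
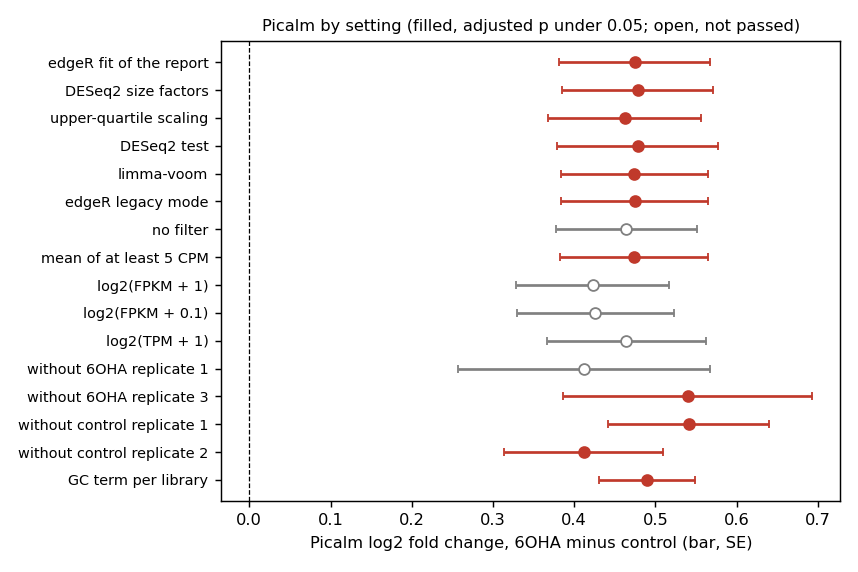
Log2 fold change of Picalm, 6OHA minus control, with its SE (bars) under the fit of the report and 15 alternatives, filled red where the adjusted p was under 0.05. Every value lies between 0.41 and 0.54, and the 5 open points are the settings where the call was lost.

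Bin1 encodes an amphiphysin-family protein whose BAR domain bends and senses curved membrane, and lies on chromosome 18 from 32376618 to 32435740. It had 215 and 225 CPM in 6OHA, against 235 and 239 CPM in control. Both 6OHA libraries lay below both controls. Its log2 fold change was -0.11 (SE 0.09, 95% interval -0.30 to 0.09, edgeR adjusted p = 0.795). Under the 15 alternatives it ran from -0.15 to -0.07. These reuse the same libraries, so their shared sign adds no further evidence. Of its 31-base stretches 5.47% occur, on either strand, in transcripts of other genes, and A830052D11Rik had the most matches.

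Sorl1 encodes a receptor of the VPS10 family that binds the amyloid precursor protein and carries it between the endosome and the Golgi apparatus, and lies on chromosome 9 from 41964709 to 42124297. It had 116 and 125 CPM in 6OHA, against 113 and 94.5 CPM in control. The 6OHA libraries lay above both controls, with control replicate 1 close under 6OHA replicate 1. The log2 fold change was 0.21 (SE 0.11, 95% interval -0.03 to 0.45, edgeR adjusted p = 0.538). It ranged from 0.09 without control replicate 2 to 0.35 without control replicate 1, so its size rested on the control library used.

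**Figure D3:**
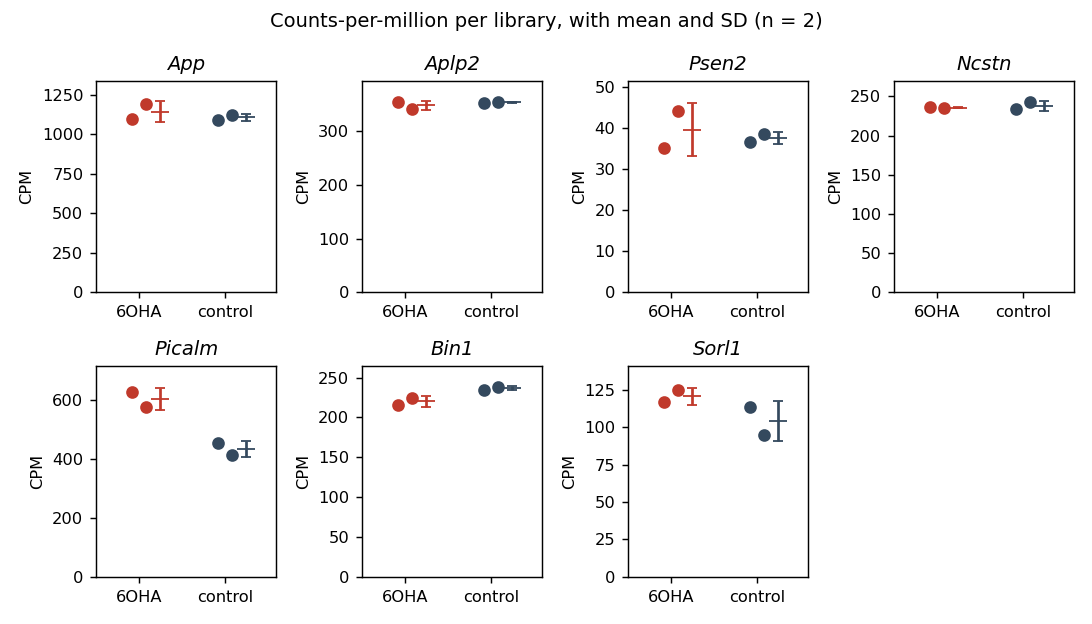
CPM of the 7 tested members in each library (points), with mean and SD beside them (n = 2), 6OHA in red to the left of control in dark blue, each axis starting at 0. The Picalm points of 6OHA, 630 and 578 CPM, stand above those of control, 454 and 415 CPM, while the points of App, Aplp2, Psen2 and Ncstn overlap between the groups.

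As a group the tested members had a median log2 fold change of 0.05, against -0.01 over all 14634 tested genes. Of the 7, 4 had values above 0 and 3 below 0, and 48.6% of all tested genes were above 0. For the 6 members that did not pass, adjusted p values ran from 0.538 to 0.981 and the 95% intervals together spanned -0.30 to 0.45, that is 0.814-fold to 1.37-fold. A p that misses the threshold does not show that a level was the same.

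**Figure D4:**
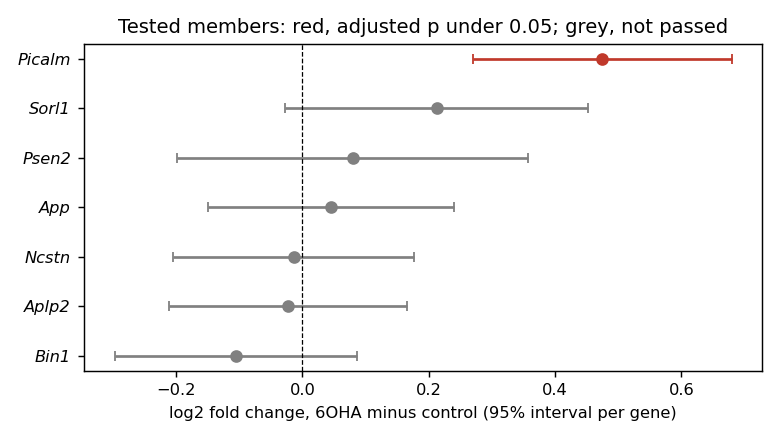
Log2 fold change of the tested members, 6OHA minus control, with the 95% interval of each gene (bars), red where the adjusted p was under 0.05. Picalm, at 0.47 with an interval of 0.27 to 0.68, is the one whose interval excludes 0.

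The rest of the pathway was described from 9 lists that hold 173 distinct genes besides the members, of which 149 were tested. Snx18 and Snx27 rose, 0 fell and 147 did not pass, so 1.34% passed, against 2.02% of all tested genes. The median log2 fold change of the 149 was 0.02. Both called genes encode sorting nexins, proteins that bind phosphoinositides on endocytic membranes. The count depended on single libraries: it was 4 without 6OHA replicate 1 (Aak1, Lrp1, Rin3 and Snx18), 4 without control replicate 1 (Adam10, Furin, Snx18 and Snx27) and 6 without control replicate 2 (Aak1, Abi3, Ctsd, Rin3, Snx18 and Snx27). Without 6OHA replicate 3 it was 2, but these were Apba1 and Furin, both lower in 6OHA, and neither Snx18 nor Snx27 passed. The DESeq2 test called 9, namely Adam10, Adam8, Ctsd, Furin, Lrp1, Rin3, Snx18, Snx27 and Usp8. Of these 7 were higher and 2 lower in 6OHA, and the DESeq2 test called 430 of all 14634 genes. A GC term per library, an alternative added after the data were seen, called 13 in the lists and 824 of 13660 genes in all.

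Snx18, which remodels membrane with its BAR domain and works beside dynamin, had 179 and 190 CPM in 6OHA, against 131 and 130 CPM in control. Its difference on the log2 scale was 0.50 (SE 0.09, edgeR adjusted p = 0.0164), and the call was lost without 6OHA replicate 3 (adjusted p = 0.161). Snx27, which recycles cargo from the endosome to the cell surface together with retromer, had 184 and 188 CPM in 6OHA, against 134 and 129 CPM in control. Its difference on the log2 scale was 0.51 (SE 0.09, edgeR adjusted p = 0.0141), and the call was lost without 6OHA replicate 1 (adjusted p = 0.0620) and without 6OHA replicate 3 (0.0986). For both genes the call was also lost with no filter and on FPKM and TPM values, at adjusted p values from 0.0681 to 0.102.

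Of 31 tested genes of the clathrin and AP-2 coat and its adaptors, where Picalm acts, Snx18 rose, 0 fell and 30 did not pass, with a median of 0.06. Hspa8, the chaperone that strips clathrin from vesicles and the most abundant of that list, measured 1575 and 1474 CPM in 6OHA, against 1419 and 1403 CPM in control (log2 fold change 0.11, edgeR adjusted p = 0.779). Of 14 tested amphiphysins, endophilins and synaptojanins, the relatives and partners of Bin1, 0 rose and 0 fell in edgeR and DESeq2 called 0. Their median was -0.01. In that list 0 had an unadjusted edgeR p under 0.05, against 1591 of all 14634 tested genes. The smallest p there was that of Sh3glb1, an endophilin-type gene, at 0.20 (edgeR adjusted p = 0.485), and the most abundant was Fnbp1, a gene for an F-BAR protein, at -0.04 (0.953). Of 23 tested genes of VPS10 receptors and retromer, the surroundings of Sorl1, Snx27 rose, 0 fell and 22 did not pass, with a median of 0.03. Lrpap1, a chaperone of lipoprotein receptors and the most abundant of this list, was at -0.17 (edgeR adjusted p = 0.616).

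None of the secretase lists held a called gene. Of 11 tested alpha-secretases and other sheddases, with regulators, 0 rose and 0 fell in edgeR, with a median of -0.17. In this list 3 had an unadjusted edgeR p under 0.05, and over all 14634 tested genes 1591 did. Adam10, the main alpha-secretase of neurons, had 340 and 332 CPM in 6OHA, against 266 and 240 CPM in control. Its log2 fold change was 0.41 (SE 0.09), and its edgeR adjusted p of 0.0510 lay just over the threshold. It passed with DESeq2 size factors (0.0459), the DESeq2 test (0.00189), a filter at a mean of 5 CPM (0.0337), a GC term per library (0.000726) and without control replicate 1 (0.0210), and it reached 0.318 at most under other settings. Adam8, a leukocyte metalloprotease and the most abundant of the list, had 1073 and 1145 CPM in 6OHA, against 1340 and 1412 CPM in control (log2 fold change -0.31, edgeR adjusted p = 0.137). It passed under the DESeq2 test (0.0293) and with a GC term per library (0.00837).

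Of 14 tested genes of the gamma-secretase complex and its modulators, 0 rose and 0 fell in edgeR, with a median of -0.01. In this list 0 had an unadjusted edgeR p under 0.05, and the DESeq2 test called 0 as well. Over all 14634 tested genes, 1591 had such a p and the DESeq2 test called 430. Ubr4, a ubiquitin ligase gene with the smallest p, was at 0.22 (edgeR adjusted p = 0.478), and Hspa5, the abundant chaperone of the endoplasmic reticulum, was at -0.04 (0.956). Of 12 tested genes that route or regulate BACE1, 0 passed in edgeR, with a median of -0.02. In that list 2 had an unadjusted edgeR p under 0.05, against 1591 of all 14634 tested genes. Usp8, a deubiquitinase of endosomal cargo, had 162 and 161 CPM in 6OHA, against 126 and 126 CPM in control (log2 fold change 0.36, edgeR adjusted p = 0.0748), and it passed under the DESeq2 test (0.00970) and with a GC term per library (0.00387). Rtn3, a reticulon gene and the most abundant of that list, was at -0.03 (0.970).

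Of 17 tested relatives and adaptors of APP, 0 passed in edgeR, with a median of -0.03. An unadjusted edgeR p under 0.05 was found for 3 of them, against 1591 of all 14634 tested genes. Lrp1, an endocytic receptor that binds APP and amyloid beta, had 938 and 1268 CPM in 6OHA, against 813 and 842 CPM in control. Its log2 fold change was 0.42 (SE 0.13, edgeR adjusted p = 0.178), and it was 0.62 without 6OHA replicate 1, where it passed (0.00454), and 0.18 without 6OHA replicate 3, so its size rested on 6OHA replicate 3. It also passed under the DESeq2 test (0.0329) and with a GC term per library (0.0108). Dab2, a clathrin adaptor and the most abundant of that list, was at -0.06 (edgeR adjusted p = 0.909). Of 11 tested enzymes and inhibitors linked to amyloid beta degradation, 0 passed in edgeR, 9 lay above 0 and the median was 0.10. Of all tested genes 48.6% lay above 0. An unadjusted edgeR p under 0.05 was found for 3 of the 11, against 1591 of all 14634 tested genes. Ctsd, which encodes the lysosomal protease cathepsin D, was the most abundant gene of all 9 lists, with 6089 and 6247 CPM in 6OHA, against 4577 and 4865 CPM in control (log2 fold change 0.39, SE 0.09, edgeR adjusted p = 0.0603). It passed under the DESeq2 test (0.000912), limma-voom (0.0422), a GC term per library (0.00666) and without control replicate 2 (0.0460). The neutral endopeptidase gene Mme, a main amyloid beta protease of the brain, had 0 counts in every library, as did Ece2, and a gene at 0 could lie at up to 0.0966 CPM in 6OHA replicate 1 and up to 0.0872 CPM in control replicate 2. Of 16 tested endocytic and cytoskeletal risk genes other than the members, 0 passed in edgeR, with a median of -0.00124. Among these 3 had an unadjusted edgeR p under 0.05, against the same 1591 of 14634. Rin3, a guanine nucleotide exchange factor for the endosomal GTPase Rab5 that binds Bin1, had 40.8 and 46.3 CPM in 6OHA, against 25.8 and 34.7 CPM in control (log2 fold change 0.53, SE 0.14, edgeR adjusted p = 0.115). Its call was made under the DESeq2 test (0.0291), with a GC term per library (0.00539), without 6OHA replicate 1 (0.0362) and without control replicate 2 (0.00508). Grn, which encodes the lysosomal protein progranulin and is the most abundant of that list, was at 0.02 (edgeR adjusted p = 0.979).

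**Figure D5:**
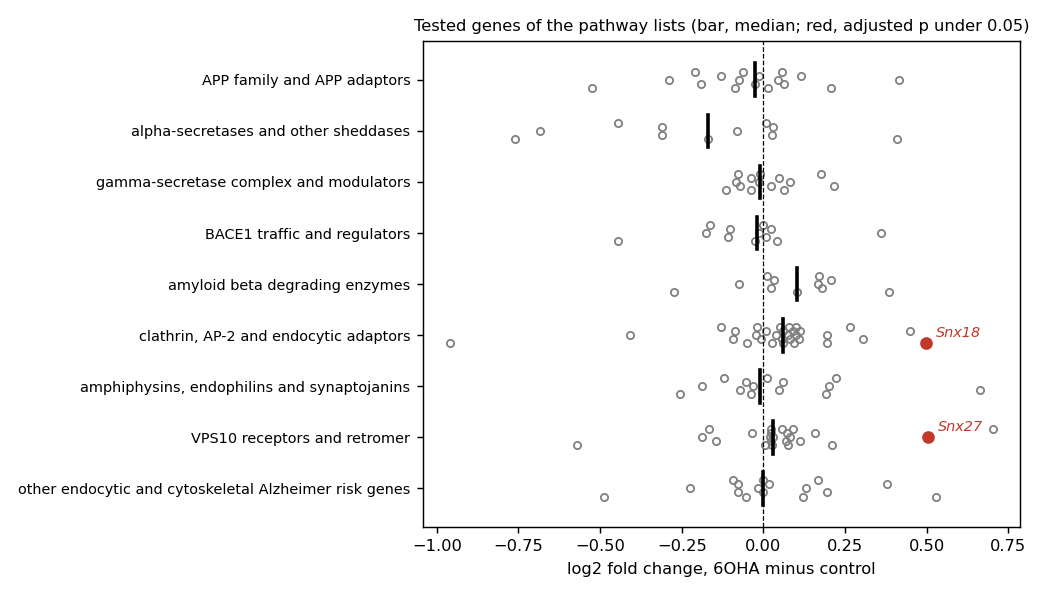
Log2 fold change, 6OHA minus control, of each tested gene (points) in the 9 pathway lists, with the list's median (black bars) and the called genes Snx18 and Snx27 in red. The medians lie between -0.17, for alpha-secretases and other sheddases, and 0.10, for enzymes of amyloid beta degradation.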

How the data were processed

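Read count columns were used as deposited, whole numbers with no normalization, per the file headers. FPKM and TPM values are those of the authors, per the file headers. The submitters' processing notes name bcl2fastq 2.20.0, Trimmomatic 0.38, HISAT2 2.1.0, Bowtie2, SAMtools 1.9, StringTie 2.1.3b and build mm10, without roles. Whether counting used strand is not given in the sources used here, while the poly-A kit was a stranded one, per the labels' protocols.

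Titles gave the groups. After filterByExpr and TMM scaling in edgeR 4.0.16 (R 4.3.3), 14634 genes were tested by quasi-likelihood with group as the only term, and 95% intervals use each gene's SE. On counts simulated for this design 11.35% of calls were false, above the nominal rate. The fit recovered 8.4% of changes of 1.25-fold, 49.2% of 1.5-fold and 76.4% of 2-fold. Alternatives used DESeq2 1.42.0, limma 3.58.1, other filters and units, and each library left out. Replicates differed beyond counting noise (chi-square per degree of freedom 10.9 in 6OHA and 22.9 in control). Positions are from RefSeq on GRCm38.p6. Transcript sequences from GENCODE gave shared stretches and a GC content for 93.3% of tested genes. Members and lists were chosen with earlier results of these data known. Named were all 9 members and, of each list, the genes that passed (otherwise the smallest p) and the most abundant. The gamma-secretase list has 15 genes, of which 14 had a row.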

Additional observations from a re-analysis of the deposited data

How the results depend on the processing

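No paired analysis was possible because the groups share only replicate number 1. The number of genes called was 295, and it was 120 with no filter, 135 on log2(FPKM + 1), 149 on log2(FPKM + 0.1), 152 on log2(TPM + 1) and 824 with a GC term per library, of which 120, 125, 142, 143 and 285 were among the 295. It ran from 265 to 500 with 1 library left out. Calls higher in 6OHA were 203 of 295, against 96 of 120 with no filter, 120 of 152 on log2(TPM + 1) and 473 of 824 with the GC term. Members called numbered 0 with no filter and on the FPKM and TPM values, and from 0 to 1 with 1 library left out. The log2 fold change of Picalm was then 0.46 with no filter, 0.42 on log2(FPKM + 1), 0.43 on log2(FPKM + 0.1) and 0.46 on log2(TPM + 1), and from 0.41 to 0.54 with 1 library left out. Genes called in the 9 lists numbered 2, against 9 under the DESeq2 test, 13 with the GC term, 0 with no filter and on the FPKM and TPM values, and from 2 to 6 with 1 library left out. Among values that did not pass, App was at -0.0291 on log2(FPKM + 1) and -0.0292 on log2(FPKM + 0.1), and Grn at -0.0298 and -0.0299. With 1 library left out App lay between -0.0103 and 0.104, Aplp2 between -0.0479 and 0.00603, Psen2 between -0.0968 and 0.237, Ncstn between -0.0398 and 0.0131, Fnbp1 between -0.0764 and 3.38e-05, Grn between -0.0652 and 0.106, Hspa5 between -0.127 and 0.0563 and Rtn3 between -0.0700 and 0.0201. The cause of these changes was not tested. A fit without 1 library takes its spread from the other group. The small number of libraries, 2 a group, limits the precision of every value.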
